A study of Homo sapiens with 9 samples.

Results

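A set of 10 genes of endoplasmic reticulum (ER) protein folding and of the unfolded protein response was followed in GBM43, a human glioblastoma cell line, across 9 RNA sequencing libraries. They were chosen by name from the deposited gene table: HSPA5, HSP90B1, CALR, SDF2L1, PDIA4, PDIA6, DNAJB9, EDEM1, HERPUD1 and XBP1. All 10 were found among the 58735 genes of the table, and all 10 were among the 11845 genes that reached 1 FPKM (fragments scaled by gene length and by the size of the library) in at least 3 libraries.

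The cells were grown in hyaluronic acid gel devices into which they could invade. From control devices the core (3 libraries) and the invasive fraction (3 libraries) were taken apart. MK801 devices received 50 µM MK801, a blocker of NMDA-type glutamate receptors, and their core and invasive cells were combined into 1 sample per library (3 libraries). All groups were the same unmodified line in the same serum-containing medium. For control devices one label gives plain medium and another gives the DMSO vehicle. Whether replicate libraries stem from different devices or cultures is not stated, and p-values therefore reflect library-to-library spread that may be technical. As MK801 libraries hold both fractions, treatment and the mix of fractions cannot be told apart in a comparison with either control fraction.

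Proteins that enter the ER are folded there by lumenal chaperones and by enzymes that form and rearrange disulfide bonds, and those that fail are exported for degradation. When unfolded proteins build up, the membrane sensors IRE1 (gene ERN1), PERK (EIF2AK3) and ATF6 start the unfolded protein response, which raises transcription of chaperones and degradation factors. IRE1 also splices XBP1 mRNA into the form that codes for an active transcription factor, and gene-level values do not separate the spliced from the unspliced form.

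The promoters of such genes are known for the ER stress response element, to which ATF6 binds with the factor NF-Y. The motifs below were searched on both strands of RefSeq promoter windows (GRCh38.p14), from 250 bases before to 50 after each start. The element (ERSE) was written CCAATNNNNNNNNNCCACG, its second form (ERSE-II) ATTGGNCCACG, and the site of XBP1 and ATF6 (UPRE) TGACGTGG. Each match in the 10 genes is shown because the motifs are rare elsewhere, 5′ to 3′ on the strand of the gene, with 5 bases on each side and the fixed letters of the motif in capitals. Where the capitals begin with CGTGG, the match is on the opposite strand.
HSPA5, ERSE, chr9:125241386-125241414 (minus strand): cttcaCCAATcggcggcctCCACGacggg
HSP90B1, ERSE, chr12:103930211-103930239 (plus strand): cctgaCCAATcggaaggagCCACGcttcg
HSP90B1, second ERSE, chr12:103930316-103930344 (plus strand): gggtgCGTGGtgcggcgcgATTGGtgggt
CALR, ERSE, chr19:12938379-12938407 (plus strand): ccacgCGTGGtcgaccatcATTGGtcggt
PDIA6, ERSE, chr2:10812848-10812876 (minus strand): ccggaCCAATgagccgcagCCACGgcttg
XBP1, ERSE, chr22:28800598-28800626 (minus strand): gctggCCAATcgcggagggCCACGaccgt
HERPUD1, ERSE-II, chr16:56932020-56932040 (plus strand): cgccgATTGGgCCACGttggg
SDF2L1, ERSE-II, chr22:21642109-21642129 (plus strand): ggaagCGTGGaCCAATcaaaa

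An ERSE was found in 5 of the 10 genes and an ERSE-II in 2 others. Over all 35116 windows, the share was 0.0769% for ERSE and 0.0541% for ERSE-II, and among the 8457 tested genes with a window it was 0.189% and 0.154%. As the 10 genes were chosen by name, from a response known for this element, these shares are background and no test of enrichment. The matches of HSPA5, PDIA6 and XBP1 lay at -66 to -48, -86 to -68 and -52 to -34 from the start, and that of CALR lay at -225 to -207. In PDIA6 and XBP1 the match was in 1 of 2 start windows. No UPRE was found in the 10 genes. As only 0.729% of all windows held one, its absence from these few windows does not set the 10 genes apart. PDIA4, DNAJB9 and EDEM1 held none of the motifs, which says only that these letters are not in these windows. A match is a description of sequence and does not show that a factor binds there.

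**Figure D1:**
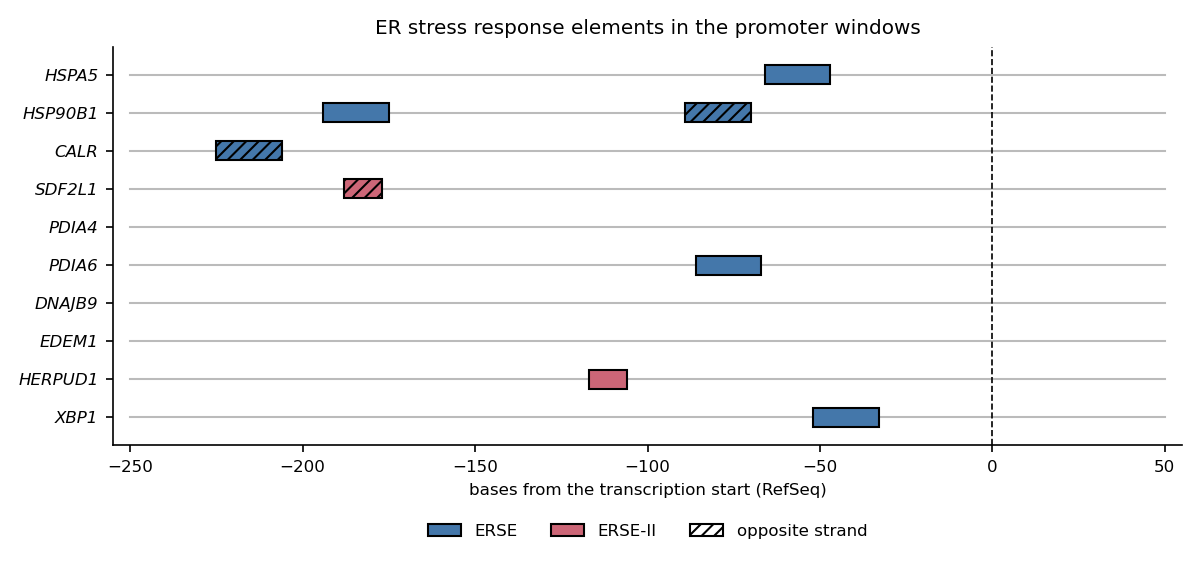
Positions of motif matches in the promoter windows of the 10 genes. The x axis is distance in bases from the RefSeq start (dashed line), blue boxes are ERSE, red boxes are ERSE-II and hatching marks the opposite strand. Where a gene has 2 start windows they are drawn on 1 line. Matches are present in 7 genes, all before the start, and HSP90B1 has 2.

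The libraries held 15.6 to 54.4 M recovered fragments in genes, and between 73 and 30462 fragments came from each of the 10 genes per library. Some properties of the libraries moved with the groups. The transcript GC content of genes, averaged with their recovered fragments as weights, was 50.4 to 51.6% in the core, 53.1 to 54.7% in the invasive fraction and 51.1 to 54.6% under MK801. The sequences of the fragments themselves were not available. Genes detected at equal depth numbered 20322 to 21414 in the core, 15975 to 19140 in the invasive fraction and 15161 to 21517 under MK801. Of 12 glioblastoma markers, 7 reached 1 FPKM in 3 libraries (VIM, CD44, EGFR, PDGFRA, SOX9, SOX2, MET), while OLIG2 was listed at 0 in all and GFAP, NES, S100B and FABP7 stayed under 1 FPKM. Of 10 fibroblast and pericyte markers, 8 were expressed, and their summed FPKM was 73.6 to 148 in the core, 357 to 628 in the invasive fraction and 85.6 to 202 under MK801. The collagen genes COL1A1 and COL1A2 made up most of that sum, which without them was 14.6 to 21.6, 45.9 to 82.4 and 18.9 to 40.8 FPKM. Of the 10 markers 8 had a higher mean in the invasive fraction than in the core, and FAP and RGS5 had a lower one. None of 5 oligodendrocyte markers reached 1 FPKM in 3 libraries, against 1 of 7 immune, 1 of 7 neuron and 2 of 6 endothelial markers. Summed endothelial markers (6.58 to 8.86 FPKM in the core, 12.2 to 29.1 in the invasive fraction) and immune markers (1.82 to 3.09 and 4.33 to 6.01) also did not overlap between the control fractions, with a higher invasive mean for 4 of 6 and 2 of 7 of them. TIE1 made up most of the endothelial sum (mean 6.34 FPKM in the core, 15.6 in the invasive fraction). CSF1R made up most of the immune sum (1.98 and 4.81). In bulk RNA, fewer cells of a type and less RNA per cell cannot be told apart.

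A few patterns among the 10 genes are given first. Mean CALR in the invasive fraction was 2.05 times that of the core and 1.71 times that of MK801 cells, and mean PDIA4 was 2.11 and 1.82 times as high, without overlap of libraries. DNAJB9 was 2.48 times lower in the invasive fraction than in the core. Over all tested genes, 32% lay wholly higher and 32.8% wholly lower in invasive than in core libraries. Wholly lower in MK801 than in invasive libraries were 5.63%. With each library's trend over GC content removed, log2 invasive minus core was 0.59 for CALR, 0.74 for PDIA4 and -0.62 for DNAJB9. As deposited these were 1.04, 1.06 and -1.14. HERPUD1 was higher in all 3 MK801 libraries than in all 6 control libraries (1.48% of tested genes were), and PDIA6 was lower (0.971%). HSPA5, the central chaperone of the response, had nearly the same mean FPKM in the 3 groups as deposited, but not under every scaling. None of these differences passed the threshold of 0.05 after adjustment in limma fitted to all 9 libraries without a replicate block or a covariate. The labels do not say what a replicate number marks, and calls with such a block are given at the end.

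The plainest summary of the levels is their order, compared per gene length. CALR was highest in each group and HSPA5 second, and neither overlapped the next gene in any group. In the core the order went on with HSP90B1, PDIA6, PDIA4, HERPUD1, EDEM1, XBP1, DNAJB9 and SDF2L1, with overlapping libraries only between PDIA6 and PDIA4 and between EDEM1 and XBP1. In the invasive fraction PDIA4 came next, overlapping HSP90B1, and DNAJB9 came last. In MK801 cells all neighbours from HSP90B1 down to DNAJB9 overlapped. All 10 genes had a mean above 5.44 FPKM, the median of tested genes. The ratio of the highest to the lowest library ran from 1.69 for HSPA5 to 9.05 for SDF2L1, with a median of 2.66 against 3.05 for all genes above 0 in every library.

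**Figure D2:**
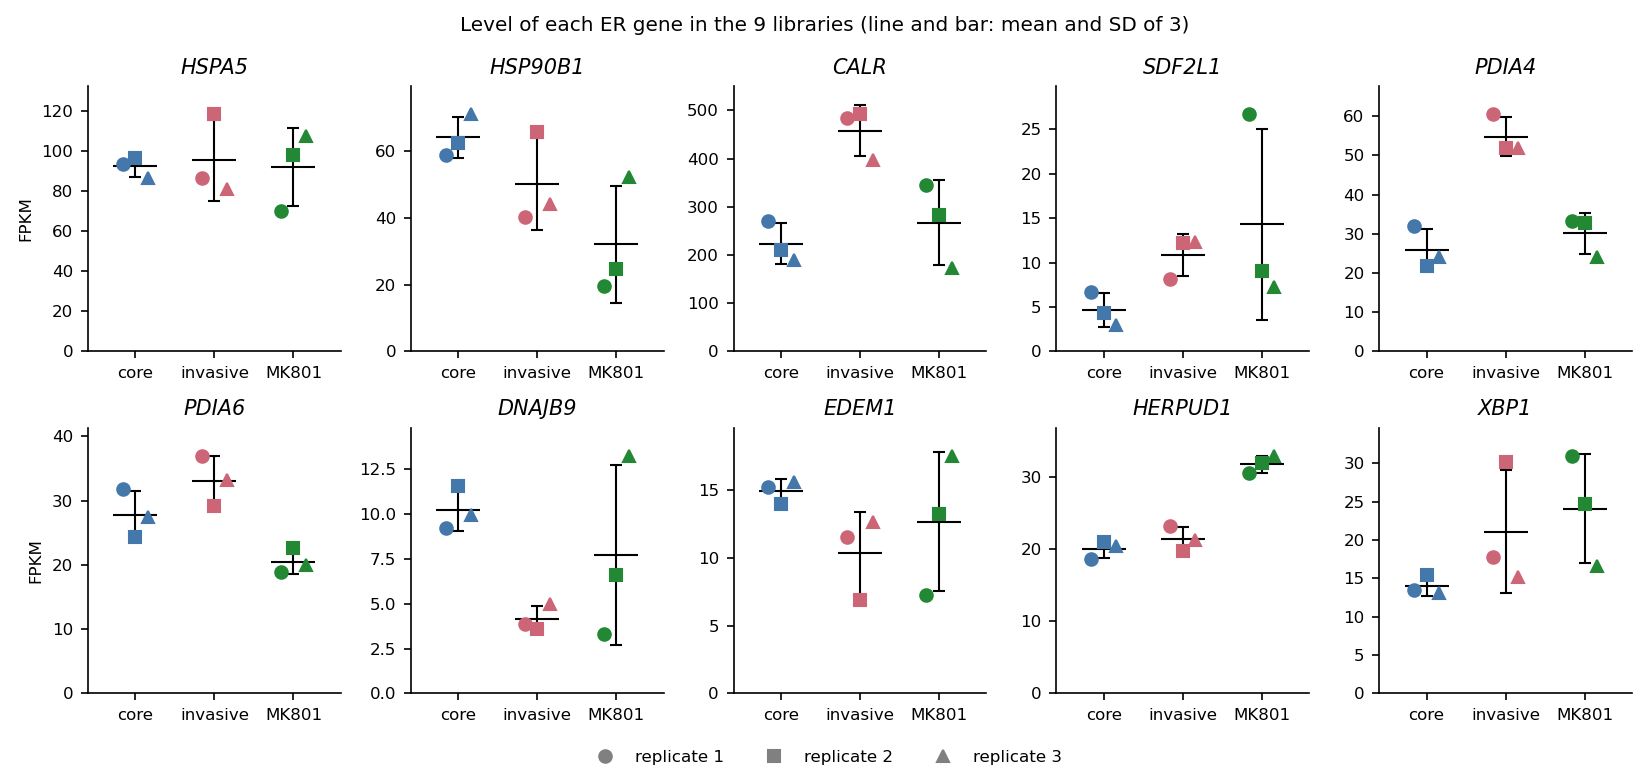
FPKM (y axis, linear from 0) of the 10 genes in each library, with replicates as circles, squares and triangles and the mean ± SD of 3 libraries as lines and bars. The invasive libraries of CALR (398 to 492) and PDIA4 (51.8 to 60.5) sit above the other 6, and the MK801 libraries of HERPUD1 (30.4 to 32.8) sit above and those of PDIA6 (19.0 to 22.6) below all 6 control libraries.

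HSPA5 (ENSG00000044574, chr9:125234853-125241330, minus strand, GRCh38) codes for BiP, the Hsp70 of the ER, which binds unfolded chains and holds the sensors inactive. Its FPKM was 93.7, 96.6 and 86.7 in core libraries 1 to 3, 86.6, 118 and 81.3 in invasive libraries and 70.0, 98.1 and 107.6 in MK801 libraries. The groups overlapped, and invasive library 2 was the highest and MK801 library 1 the lowest of all. The means were 92.3 ± 5.07, 95.4 ± 20.0 and 91.9 ± 19.5 FPKM (SD, n = 3 each). On the log2(FPKM + 1) scale the invasive minus core difference was 0.03 ± 0.25 (SE), with a limma adjusted p of 0.936. This difference was 0.37 with each library's trend over GC content removed and -0.35 with each library rescaled to a common sum.

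HSP90B1 (ENSG00000166598, chr12:103930107-103953645, plus strand) codes for GRP94, the Hsp90 of the ER, which acts on selected secreted and membrane proteins. Its FPKM was 58.9, 62.4 and 70.9 in the core, 40.3, 65.6 and 44.2 in the invasive fraction and 19.5, 24.6 and 52.1 under MK801. Each MK801 library was below each core library, while invasive libraries overlapped both. MK801 minus core was -1.10 ± 0.35 on the log2 scale (limma adjusted p = 0.235). HSP90B1 has the lowest GC content of the 10 genes, 42.8%, and after each library's trend over GC content was removed this difference was -0.61. Invasive minus core was -0.38 as deposited, turned to 0.18 with the GC trend removed, and was -0.0113 with the number of genes detected in a library as a covariate.

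CALR (ENSG00000179218, chr19:12938578-12944489, plus strand) codes for calreticulin, a lectin chaperone of glycoproteins and a calcium store protein of the ER. Its FPKM was 270, 210 and 189 in the core, 485, 492 and 398 in the invasive fraction and 346, 283 and 173 under MK801. All invasive libraries were above all others, and MK801 libraries overlapped the core. The invasive mean was 458 ± 52.4 against 223 ± 42.4 FPKM in the core, a log2 difference of 1.04 ± 0.31 (limma adjusted p = 0.106). With the GC trend removed the difference was 0.59, and with the number of genes detected in a library as a covariate it was 0.62. MK801 minus invasive was -0.83 ± 0.31 (limma adjusted p = 0.482) and -0.74 with the GC trend removed. With the genes detected covariate it was -0.72 (limma adjusted p = 0.0466).

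SDF2L1 (ENSG00000128228, chr22:21642261-21644298, plus strand) codes for a partner of BiP and its J-domain co-chaperones. Its FPKM was 6.70, 4.29 and 2.95 in the core, 8.10, 12.2 and 12.3 in the invasive fraction and 26.7, 9.02 and 7.21 under MK801. All libraries of both other groups were above the core, and MK801 library 1 stood far above the rest. The log2 difference from the core was 1.10 ± 0.43 in the invasive fraction (limma adjusted p = 0.114) and 1.27 ± 0.43 in MK801 cells (limma adjusted p = 0.235). SDF2L1 has the highest GC content of the 10, 66.2%, and with the GC trend removed these were 0.36 and 0.65. With the genes detected covariate the first was also 0.36, and without MK801 library 1 the second was 0.74.

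PDIA4 (ENSG00000155660, chr7:149003062-149028641, minus strand) and PDIA6 (ENSG00000143870, chr2:10783391-10837977, minus strand) code for the protein disulfide isomerases ERp72 and P5. PDIA4 was at 32.0, 21.8 and 24.1 FPKM in the core, 60.5, 52.0 and 51.8 in the invasive fraction and 33.4, 32.7 and 24.2 under MK801. PDIA6 was at 31.7, 24.3 and 27.4 FPKM in the core, 36.9, 29.2 and 33.3 in the invasive fraction and 19.0, 22.6 and 19.9 under MK801. PDIA4 separated the invasive fraction from everything else, whereas PDIA6 separated MK801 cells, and core and invasive libraries of PDIA6 overlapped. Invasive minus core was 1.06 ± 0.23 for PDIA4, the smallest limma adjusted p of the 10 genes (0.0816), and 0.25 ± 0.21 for PDIA6. Removing the GC trend brought the 2 genes closer, to 0.74 for PDIA4 and 0.56 for PDIA6. MK801 minus invasive was -0.85 ± 0.23 for PDIA4 (limma adjusted p = 0.299) and -0.66 ± 0.21 for PDIA6 (limma adjusted p = 0.375). With the GC trend removed these were -0.81 and -0.75, with limma adjusted p of 0.0673 and 0.0893. With the genes detected covariate they were -0.81 and -0.68, with limma adjusted p of 0.0378 and 0.0400. The ratio of PDIA4 to PDIA6 FPKM, which does not depend on the scaling of a library and was chosen after the values were seen, was 0.879 to 1.01 in the core, 1.56 to 1.78 in the invasive fraction and 1.21 to 1.76 under MK801. This ratio is not free of the GC trend, as GC content is 54.1% for PDIA4 and 46.4% for PDIA6.

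DNAJB9 (ENSG00000128590, chr7:108569568-108574850, plus strand) codes for ERdj4, a J-domain co-chaperone of BiP that takes part in ER-associated degradation and in holding back IRE1. Its FPKM was 9.23, 11.6 and 9.93 in the core, 3.85, 3.58 and 4.96 in the invasive fraction and 3.34, 6.60 and 13.2 under MK801. All invasive libraries were below all core libraries, and MK801 libraries spread from below the invasive range to above the core range. Invasive minus core was -1.14 ± 0.36 (limma adjusted p = 0.106), -0.62 with the GC trend removed and -0.46 with the genes detected covariate. THAP5 and PNPLA8 overlap DNAJB9 on the opposite strand, at up to 7.20 and 6.41 FPKM. As the use of strand in counting is not given, it is not known how reads in the overlapping stretches were assigned.

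EDEM1 (ENSG00000134109, chr3:5187646-5219957, plus strand) codes for a mannosidase-like protein that passes misfolded glycoproteins on to degradation. Its FPKM was 15.2, 14.0 and 15.6 in the core, 11.5, 6.87 and 12.6 in the invasive fraction and 7.27, 13.2 and 17.5 under MK801. The invasive libraries were all below the core, and MK801 libraries overlapped both. Invasive minus core was -0.53 ± 0.31 (limma adjusted p = 0.212) and -0.76 with the GC trend removed, so that EDEM1, unlike DNAJB9, moved further from 0. With the genes detected covariate the EDEM1 difference was 0.0544.

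HERPUD1 (ENSG00000051108, chr16:56932048-56944863, plus strand) codes for a ubiquitin-like membrane protein of the degradation complex and is a target of both the ATF6 and PERK branches. Its FPKM was 18.5, 20.9 and 20.4 in the core, 23.1, 19.7 and 21.2 in the invasive fraction and 30.4, 31.9 and 32.8 under MK801. The MK801 libraries were close together and above all 6 control libraries, and the control fractions overlapped. The MK801 mean was 31.7 ± 1.20 FPKM, 1.59 times that of the core and 1.49 times that of the invasive fraction. MK801 minus core was 0.64 ± 0.19 (limma adjusted p = 0.235) and MK801 minus invasive 0.55 ± 0.19 (limma adjusted p = 0.440). With the GC trend removed these were 0.70 and 0.48. With the genes detected covariate they were 0.70 (limma adjusted p = 0.151) and 0.53 (limma adjusted p = 0.0416).

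XBP1 (ENSG00000100219, chr22:28794555-28800597, minus strand) codes for the transcription factor of the IRE1 branch. Its FPKM was 13.5, 15.4 and 13.1 in the core, 17.8, 30.2 and 15.2 in the invasive fraction and 30.9, 24.8 and 16.7 under MK801. All MK801 libraries were above the core, and invasive libraries overlapped both. The highest values came from MK801 library 1 and invasive library 2, the 2 libraries with the fewest genes detected. MK801 minus core was 0.70 ± 0.30 (limma adjusted p = 0.235), and invasive minus core was 0.50 ± 0.30 (limma adjusted p = 0.212). The latter was 0.22 without invasive library 2 and 0.0149 with the genes detected covariate, under which MK801 minus core was 0.34.

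**Figure D3:**
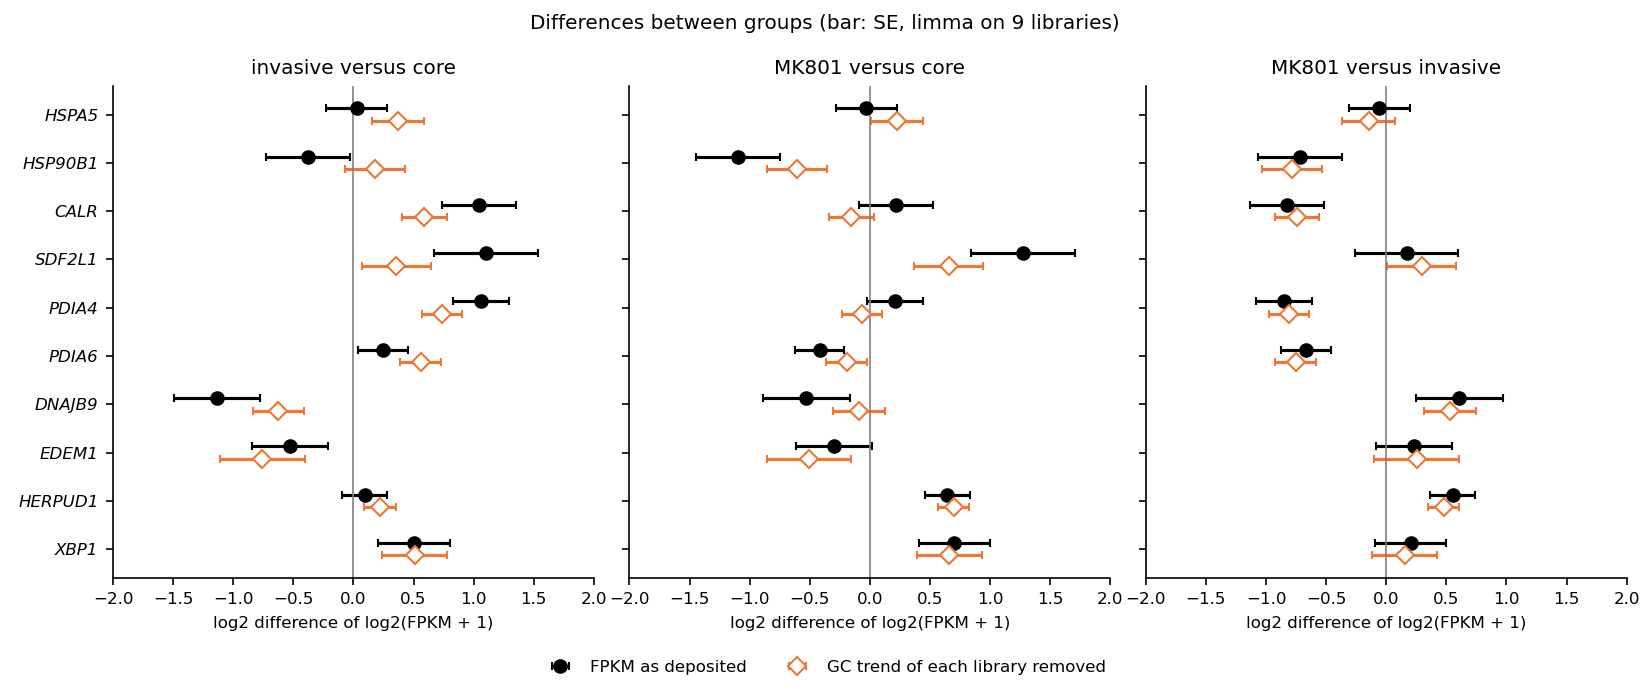
Differences between groups for the 10 genes, as log2 differences of log2(FPKM + 1) (x axis) with the standard error from limma on 9 libraries. Black circles are FPKM as deposited and open orange diamonds are values with the GC trend of each library removed. Invasive minus core reads 1.06 for PDIA4 and -1.14 for DNAJB9 as deposited, against 0.74 and -0.62 with the trend removed, and HSP90B1 crosses 0.

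Counted over the 10 genes, invasive minus core was positive for 7 and negative for 3, with a median of 0.17 on the log2 scale against -0.02 for all tested genes. With limma on 9 libraries 0 of 10 passed the threshold, as did 0% of all tested genes, and so did 0 of 10 in limma-voom run on fragments recovered from FPKM. At an unadjusted p under 0.05 the count was 4 of 10 (CALR, DNAJB9, PDIA4, SDF2L1), against 37.7% of all tested genes. When core and invasive libraries were compared alone, the same 4 genes passed the adjusted threshold, against 52.2% of all tested genes. With the GC trend also removed, CALR, DNAJB9, EDEM1, PDIA4 and PDIA6 passed, against 19.5% of all. Leaving out MK801 library 1 or 3 from the fit of all groups gave 4 of 10 (CALR, DNAJB9, PDIA4, SDF2L1), against 39.5% and 41.3% of all tested genes. Invasive libraries did not overlap the core and were higher for 3 of the 10 (CALR, PDIA4, SDF2L1), against 32% of tested genes, and lower for 2 (DNAJB9, EDEM1), against 32.8%. The share of the 10 genes that separated the control fractions was thus near that of all genes.

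MK801 minus core was positive for 5 genes and negative for 5, with a median of 0.09 against 0.00 for all tested genes. No gene passed the adjusted threshold in limma or limma-voom (0 of 10, against 0% of all). At an unadjusted p under 0.05 the count was 4 of 10 (HERPUD1, HSP90B1, SDF2L1, XBP1), against 21.2% of all tested genes. Without MK801 library 3, whose HSP90B1 and DNAJB9 were the highest of its group, 5 of 10 passed (DNAJB9, HERPUD1, HSP90B1, SDF2L1, XBP1), against 50.2% of all tested genes. That library also had the most recovered fragments (54.4 M) and genes detected (21517) of all 9 libraries. Its weighted GC content (51.1%) was the lowest of its group and lay in the core range. MK801 libraries lay wholly above the core for HERPUD1, SDF2L1 and XBP1 (9.89% of tested genes did so) and wholly below for HSP90B1 and PDIA6 (8.82%).

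Against the invasive fraction, 5 of the 10 genes were higher and 5 lower in MK801 cells, with a median of 0.06 against 0.00 for all tested genes. Again 0 of 10 passed in limma or limma-voom, against 0% of all, and 4 of 10 (CALR, HERPUD1, PDIA4, PDIA6) had an unadjusted p under 0.05, against 8.26% of all tested genes. The same 4 passed the adjusted threshold in limma with genes detected as a covariate, as did 323 of all 11845 tested genes. MK801 libraries lay wholly above the invasive ones for HERPUD1 (5.22% of tested genes did so) and wholly below for CALR, PDIA4 and PDIA6 (5.63%). Set against all 6 control libraries, HERPUD1 was above (1.48% of tested genes) and PDIA6 below (0.971%). The comparisons with MK801 share MK801 libraries, and those with the core share core libraries, so their counts are not independent of one another.

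The ratio of HERPUD1 to PDIA6, chosen after the values were seen and free of library scaling, was 0.584 to 0.861 in the core, 0.627 to 0.676 in the invasive fraction and 1.41 to 1.65 under MK801. Within the summed FPKM of the 10 genes, HERPUD1 took 3.37 to 4.43% in the core, 2.38 to 3.15% in the invasive fraction and 5.19 to 7.07% under MK801, without overlap. CALR alone took 41.1 to 49.2% of that sum in the core, 59.0 to 62.7% in the invasive fraction and 37.2 to 59.0% under MK801. The sum itself was 460 to 550 FPKM in the core, 674 to 829 in the invasive fraction and 464 to 587 under MK801. As a share of all FPKM in a library, however, it was 0.177 to 0.223% in the core, 0.216 to 0.253% in the invasive fraction and 0.132 to 0.199% under MK801, so that core and invasive libraries overlapped on that scale. Rescaling each library to a common sum moved the median of all tested genes by -0.35 in invasive minus core and by -0.36 in MK801 minus core (log2). On that scale HSPA5, HERPUD1 and PDIA6 turned negative in invasive minus core (-0.35, -0.28 and -0.12), as did PDIA4 and CALR in MK801 minus core (both -0.18).

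**Figure D4:**
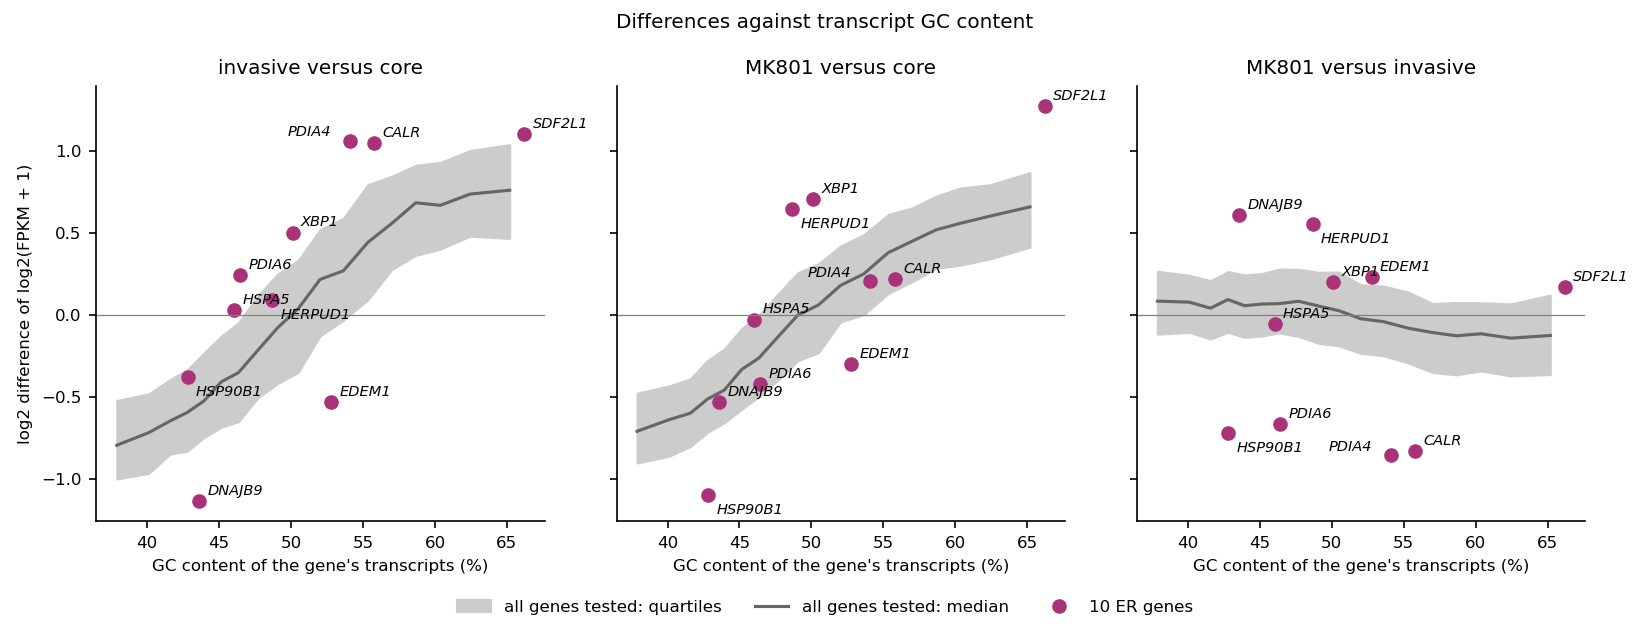
Log2 difference between groups (y axis) against the GC content of a gene's transcripts in percent (x axis). The grey line and band are the median and quartiles of all tested genes in bins of GC content, and points are the 10 genes. In both comparisons with the core the band climbs from left to right, with DNAJB9 (43.6% GC) below 0 and SDF2L1 (66.2%) above 1, and against the invasive fraction it is nearly flat.

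Differences from the core followed GC content in these libraries. Over the 10 genes, Spearman's rho between GC content and the difference was 0.77 for invasive minus core and 0.76 for MK801 minus core, against 0.75 and 0.76 over all tested genes, and for MK801 minus invasive it was -0.24 against -0.23. These describe genes measured in the same libraries and carry no p. With the GC trend removed, the median of the 10 genes in invasive minus core was 0.36 and 8 were positive. The part of the fibroblast and pericyte, endothelial and immune markers in these differences was not tested.

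The 10 genes did not move as 1 block. Of 45 pairs, 22 had a positive and 23 a negative correlation of log2(FPKM + 1) over the 9 libraries, with a median r of -0.07. CALR went with PDIA4 (r = 0.951), DNAJB9 with EDEM1 (0.868) and XBP1 with SDF2L1 (0.766), while CALR and DNAJB9 (-0.925), XBP1 and EDEM1 (-0.850) and PDIA4 and DNAJB9 (-0.829) went opposite ways. Among the other tested protein-coding genes, the pattern of HSPA5 over the 9 libraries was most like COG7 (r = 0.910), SLC6A6 (0.907), MFSD14A (0.893), CTNND1 (0.889), ZNF786 (0.886) and ZNF749 (0.852). The mean of the 10 scaled genes was most like FRG2 (0.917), S1PR3 (0.912), INAFM2 (0.903), LPCAT2 (0.895), DDX51 (0.892) and KIAA1549 (0.880). These correlations share libraries, depth and base composition and are descriptions of 9 points.

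Among the 10 genes, 7 held an ERSE or ERSE-II, and their median log2 differences were 0.25 for invasive minus core, 0.22 for MK801 minus core and -0.06 for MK801 minus invasive. Another 22 tested genes held one, a set chosen after these data were seen, among them CANX, CRELD2, HYOU1, FICD and SERP1. Of the 22, 13 were higher and 9 lower in invasive than in core cells (median 0.35), and 7 were higher and 15 lower in MK801 than in invasive cells (median -0.24). Over all tested genes, 49.1% and 49.8% were higher in these comparisons. None of the 22 passed the adjusted threshold in limma, nor did any tested gene. Within this set SERP1, an ER membrane protein of the translocon, stood at 39.5 ± 4.69 FPKM in the core, 24.5 ± 3.13 in the invasive fraction and 40.0 ± 9.25 under MK801.

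Around the 10 genes, 8 lists of other ER proteostasis genes held 129 symbols, of which 122 were tested. None passed the adjusted threshold in limma in any comparison (0 called higher and 0 lower in each list), and 52, 27 and 13 had an unadjusted p under 0.05 in invasive minus core, MK801 minus core and MK801 minus invasive. These are 42.6%, 22.1% and 10.7% of the 122, beside 37.7%, 21.2% and 8.26% of all tested genes. The medians over the 122 genes were 0.19, 0.14 and -0.05. With core and invasive libraries compared alone, 72 of the 122 (59.0%) passed the adjusted threshold, beside the 52.2% of all tested genes given above. Rescaled to a common sum, the list medians of invasive minus core ran from -0.56 (translocon) to 0.25 (N-glycosylation), around -0.37 for all tested genes, and only those of N-glycosylation, lumenal chaperones (0.0357) and disulfide enzymes (0.0102) stayed above 0. With the GC trend removed, the PERK-ATF4 median turned to -0.23 and the KDEL receptor and transport median to 0.22.

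Lumenal chaperones and co-chaperones (18 tested) had a median of 0.35 in invasive minus core and -0.16 in MK801 minus invasive. HYOU1, the large nucleotide exchange factor of BiP, was at 7.33 ± 1.21 FPKM in the core, 16.7 ± 1.38 in the invasive fraction and 10.5 ± 1.80 under MK801, with invasive libraries above both others. CRELD2, a secreted ER stress protein, had the same order of groups, at 1.22 ± 0.351, 3.69 ± 0.537 and 2.30 ± 0.731 FPKM. Triplets of means ± SD of 3 libraries, or of medians, are given from here in fixed order, which for means is core, invasive, MK801 and for medians is invasive against core, then MK801 against core, then MK801 against invasive. SERPINH1, the collagen chaperone, stood at 44.4 ± 7.68, 100.9 ± 18.5 and 82.1 ± 28.9 FPKM, and the prolyl isomerase PPIB at 43.2 ± 7.49, 93.9 ± 23.6 and 64.3 ± 33.5. The secreted factor MANF was at 19.1 ± 2.22, 24.7 ± 1.11 and 24.3 ± 6.70 FPKM. Other members had lower means in the invasive fraction than in the core, as deposited. CANX, the membrane-bound lectin chaperone related to CALR, was at 63.1 ± 2.65, 49.9 ± 4.21 and 42.4 ± 12.7 FPKM. The BiP co-chaperone DNAJC3 was at 8.42 ± 0.927, 4.02 ± 1.07 and 5.34 ± 4.35, and DNAJB11, another BiP co-chaperone, at 3.71 ± 0.618, 2.96 ± 0.621 and 3.08 ± 0.603 FPKM. Removing the GC trend turned invasive minus core from -0.26 to 0.27 for DNAJB11 and left -0.0245 for CANX and -0.25 for DNAJC3. The same step took HYOU1 from 1.09 to 0.64, CRELD2 from 1.09 to 0.42 and SERPINH1 from 1.16 to 0.47. PPIB went from 1.09 to 0.59, and MANF from 0.36 to 0.34. DNAJC3 and CANX, like DNAJB9 and HSP90B1, have a GC content below that of the median tested gene (40.6% and 46.5% against 49.8%), and HYOU1 and CRELD2 have 55.7% and 60.9%.

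Disulfide enzymes (13 tested) had a median of 0.38 in invasive minus core and -0.29 in MK801 minus invasive. PDIA3, the isomerase that works with CALR and CANX, was at 42.9, 33.0 and 34.2 FPKM in the core, 47.8, 54.4 and 41.8 in the invasive fraction and 27.0, 28.4 and 26.6 under MK801. Like PDIA6 it was below all 6 control libraries in MK801 cells. Its MK801 minus invasive difference was -0.78 ± 0.21 (limma adjusted p = 0.295). P4HB, the founding disulfide isomerase, was at 86.9 ± 10.9, 168.8 ± 35.0 and 122.6 ± 43.4 FPKM, and the peroxiredoxin PRDX4 at 46.2 ± 7.16, 77.7 ± 7.37 and 52.3 ± 14.7. Removing the GC trend took invasive minus core from 0.94 to 0.33 for P4HB. For PDIA3 and PRDX4 it rose, from 0.38 to 0.44 and from 0.74 to 0.87.

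N-glycosylation and glycan trimming (14 tested) had the highest list median in invasive minus core, 0.54, and the lowest in MK801 minus invasive, -0.31, where 12 of 14 were lower. Over all tested genes 49.8% were higher in that comparison, and genes measured in the same libraries are not independent. DDOST, a subunit of the oligosaccharyltransferase, was at 93.5 ± 13.6, 192.9 ± 15.1 and 113.1 ± 43.3 FPKM, and its partner DAD1 at 137.7 ± 16.3, 178.8 ± 77.9 and 179.2 ± 92.4. Removing the GC trend took invasive minus core from 1.04 to 0.77 for DDOST and from 0.30 to 0.64 for DAD1. The translocon list (17 tested) had a median of -0.18 in invasive minus core, which was 0.26 with the GC trend removed. Within it SEC61A1, the channel subunit, was at 105.6 ± 12.6, 173.6 ± 32.2 and 140.1 ± 37.2 FPKM, and SEC61G, a small subunit, at 61.4 ± 1.61, 49.1 ± 4.17 and 67.8 ± 3.12, above all 6 control libraries in MK801 cells. For SEC61G, invasive minus core turned from -0.32 to 0.34 with the GC trend removed, and for SEC61A1 it went from 0.70 to 0.38. ER-associated degradation (21 tested) had medians of 0.15, 0.07 and -0.05. Its most abundant genes were VCP, the segregase that pulls proteins out of the membrane, at 55.3 ± 5.61, 94.4 ± 21.2 and 77.0 ± 22.7 FPKM, and AUP1 at 32.9 ± 0.582, 72.3 ± 13.1 and 64.6 ± 34.6. KDEL receptors and ER to Golgi transport (18 tested) had medians of -0.06, -0.03 and 0.08. The retrieval receptor KDELR1 was at 96.9 ± 13.4, 185.6 ± 86.7 and 202.1 ± 107.3 FPKM and the cargo receptor SURF4 at 72.2 ± 16.2, 126.9 ± 25.7 and 146.9 ± 49.9. Removing the GC trend took invasive minus core from 0.85 to 0.28 for KDELR1 and from 0.81 to 0.41 for SURF4. For VCP it went from 0.74 to 0.52 and for AUP1 from 1.10 to 0.54.

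Of the sensors, ERN1 and EIF2AK3 lay below the median tested gene and ATF6 above it. ERN1 was at 2.20 ± 0.238 FPKM in core and 2.47 ± 0.654 in MK801 libraries, with the invasive libraries at 1.65, 1.27 and 1.58, EIF2AK3 at 1.85 ± 0.370, 1.19 ± 0.444 and 1.44 ± 0.694, and ATF6 at 8.03 ± 0.413, 6.33 ± 0.373 and 6.60 ± 1.95. ERN1 and ATF6 were lower in all invasive than in all core libraries, and ERN1 was higher in all MK801 than in all invasive libraries. Once the GC trend was removed, invasive minus core was -0.57 for ERN1 but turned from -0.30 to 0.33 for ATF6 and from -0.39 to 0.23 for EIF2AK3. The list of sensors and activation (10 tested) had medians of 0.24, 0.12 and -0.11, and its most abundant members were the related factors CREB3 (25.4 ± 5.78, 42.0 ± 7.54 and 53.6 ± 26.3 FPKM) and CREB3L1 (10.6 ± 1.63, 32.4 ± 15.6 and 26.8 ± 17.8). Removing the GC trend took invasive minus core from 0.71 to 0.21 for CREB3 and from 1.44 to 0.84 for CREB3L1. The PERK-ATF4 branch (12 tested) had medians of 0.06, -0.05 and 0.15. ATF4, its central factor, was at 196.5 ± 31.3, 188.0 ± 24.9 and 210.2 ± 4.29 FPKM, and PPP1R15A, which ends the PERK signal, at 267.6 ± 22.0, 305.5 ± 48.5 and 314.8 ± 68.9. With the GC trend removed, invasive minus core went from -0.06 to -0.46 for ATF4 and turned from 0.18 to -0.39 for PPP1R15A. DDIT3, the factor CHOP, was at 28.9, 29.2 and 38.3 FPKM in the core, 17.1, 6.93 and 18.4 in the invasive fraction and 26.4, 21.1 and 31.7 under MK801. Its invasive libraries lay below all 6 others, as for DNAJB9 against the core, and invasive minus core was -1.22 ± 0.34 (limma adjusted p = 0.103) and -1.24 with the GC trend removed.

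**Figure D5:**
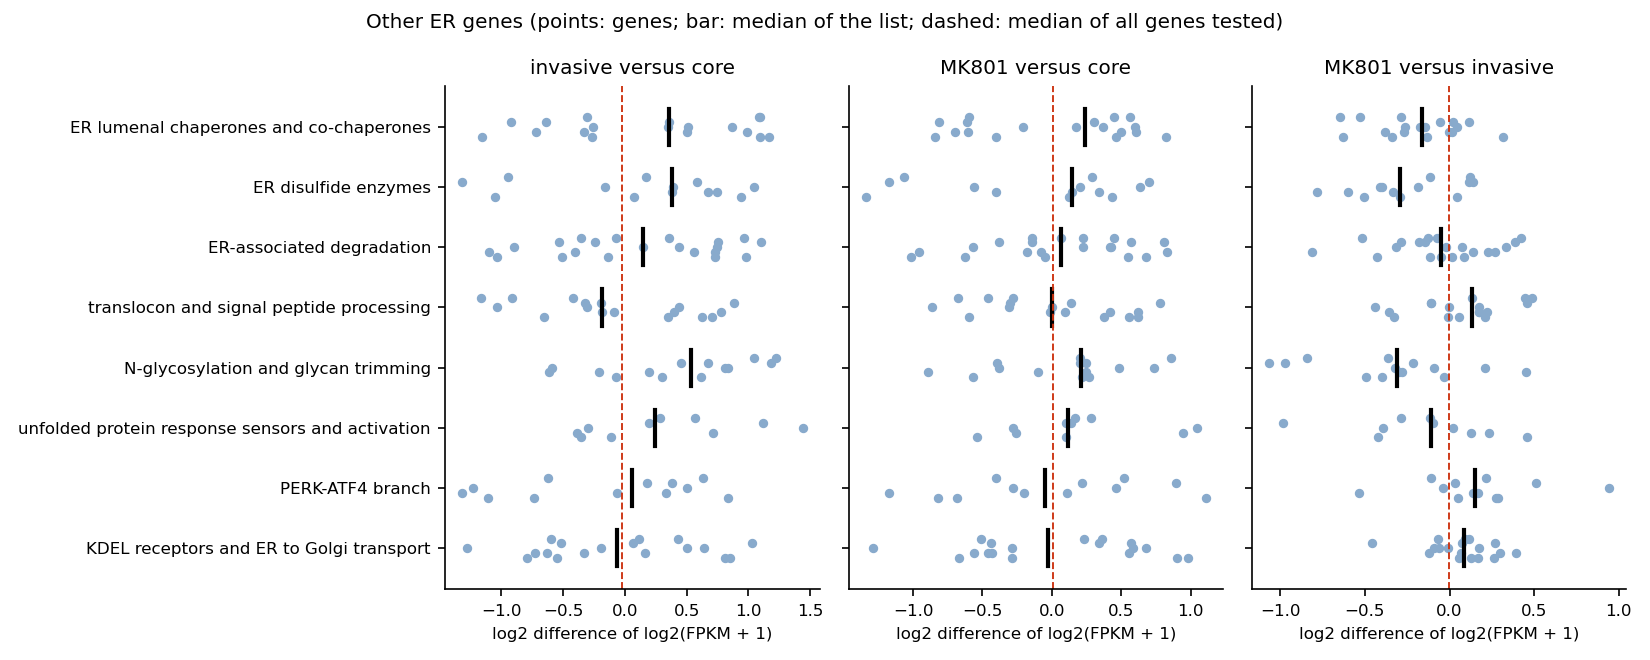
Log2 differences of log2(FPKM + 1) (x axis) for the tested genes of 8 lists of other ER genes, 1 point per gene. Black bars are list medians and the red dashed line is the median of all tested genes. N-glycosylation genes have the highest median in invasive minus core (0.54) and the lowest in MK801 minus invasive (-0.31), and every list has genes on both sides of 0.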

How the data were processed

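RNA sequencing values of 9 libraries (3 core, 3 invasive, 3 MK801) were analysed. The deposited values are FPKM per gene, computed by the authors, with the gene length beside them. Alignment with HISAT2 2.0.5 and counting with featureCounts 1.5.0-p3 on GRCh38 are named in the submitters' processing notes. Their settings, strand included, are not given in the sources used here. Columns were matched to libraries through the labels, and 0 value columns had no sample. Of 58735 genes, 58690 (99.92%) had the identifier and coordinates of GENCODE release 29, from whose transcripts GC content was averaged per gene. Multiplied by gene length, 100% of FPKM values were whole fragments (tolerance 0.01) once divided by the library's unit, which gave 15.6 to 54.4 M fragments per library. Low values are limited by this depth.

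Genes reaching 1 FPKM in at least 3 libraries (11845) were analysed as log2(FPKM + 1) with limma 3.58.1 in R 4.3.3, 1 mean per group over all 9 libraries, empirical Bayes with a mean-variance trend, Benjamini-Hochberg adjustment over all tested genes and a threshold of 0.05. With 3 against 3 libraries an exact permutation test cannot go below 0.1, so none is given. The fit was tested on simulated data. Alternatives were other pseudocounts, filters, scalings, limma-voom on recovered fragments with trimmed-mean scaling, groups compared alone, removal of a loess trend over GC content (span 0.3), genes detected as a covariate, a replicate block, and leaving out libraries. The members and lists were chosen with earlier results of these data known. All 10 members were named, with the 2 most abundant genes of each list, the sensors and a fixed set of ER genes, and SERP1 was chosen after its values were seen. Promoters are RefSeq's, and protein sequences were not used here.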

Additional observations from a re-analysis of the deposited data

How the results depend on the processing

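The 30 differences of the 10 genes were recomputed under 24 alternatives. Of 720 values, 647 kept their direction and side of the threshold, 36 gained a call and 37 changed sign, and 18 of the 30 differences never changed sign. Other filters, comparing groups alone, the block, and leaving out a library of the group not compared cannot change a difference, only its test. Directions kept under these settings were fixed in advance and do not measure stability. Under GC trend removal (alone, with groups compared alone, or with the block) HSP90B1 in invasive minus core became 0.18, and in MK801 minus core HSPA5 became 0.22, PDIA4 -0.0671 and CALR -0.15. Rescaling to a common sum turned HSPA5 (-0.35), HERPUD1 (-0.28) and PDIA6 (-0.12) in invasive minus core and PDIA4 and CALR (both -0.18) in MK801 minus core. With genes detected as a covariate, EDEM1 became 0.0544 in invasive minus core and 0.13 in MK801 minus core, where HSPA5 became 0.0559 and CALR -0.0941. Without the 2 libraries with the fewest genes detected, HSPA5 was -0.14, 0.15 and 0.29 in the 3 comparisons, EDEM1 0.0240 in MK801 minus core and SDF2L1 -0.28 in MK801 minus invasive. The cause was not tested. Leaving out each library in turn gave HSPA5 -0.14 to 0.13, -0.15 to 0.15 and -0.18 to 0.13 in the 3 comparisons, EDEM1 -0.56 to 0.0240 in MK801 minus core and -0.0262 to 0.55 in MK801 minus invasive, and SDF2L1 -0.37 to 0.51 in MK801 minus invasive.

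Counts of calls depended on the fit. Against 0 in limma on 9 libraries, invasive minus core gave 6179 genes and 4 members with groups compared alone, 6 genes with the GC trend removed, 2310 genes and 5 members with both, 4 genes with genes detected as a covariate, 14 without the 2 libraries with fewest genes, and 0 to 4888 genes and 0 to 4 members when 1 library was left out. MK801 minus core gave 0 to 5941 genes and 0 to 5 members when 1 library was left out (without MK801 replicate 3 the highest). MK801 minus invasive gave 1 gene with a filter of 5 FPKM, 65 with the GC trend removed, 3 with that and groups compared alone, 323 genes and 4 members with genes detected as a covariate, and 0 to 42 genes when 1 library was left out. Deviations of same-numbered libraries 1, 2 and 3 from their group means correlated at -0.0070, 0.243 and 0.445 between core and invasive libraries. Between core and MK801 libraries the values were 0.414, 0.0438 and 0.585, and between invasive and MK801 libraries -0.15, 0.0344 and 0.608. Core library 1 correlated better with invasive library 2 (0.208) than with invasive library 1. In contrast, core libraries 2 and 3 each correlated best with the invasive library of the same number. Column names give core, invasive and MK801 libraries shared numbers, but the labels do not say what a number marks, so no pairing was assumed. A replicate block gave 2525 genes and 3 members in invasive minus core (limma adjusted p = 0.0424 for PDIA4 and CALR and 0.0433 for DNAJB9), 7134 genes and 6 members with groups compared alone, and 0 genes and 0 members with the GC trend removed and the block. In MK801 minus core the block with groups compared alone gave 113 genes and 1 member, and in MK801 minus invasive 1 gene, or 38 with the GC trend removed and the block.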
